A study of Mus musculus with 36 samples.

Results

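A set of 10 genes known for the epicardium and the mesothelium were followed in whole mouse hearts from midgestation to old age: Wt1, Tcf21, Tbx18, Upk3b, Upk1b, Msln, Krt8, Krt18, Krt19 and Podxl. The genes were chosen by symbol, with every probe set that carries it, which gave 10 of 20701 genes and 19 of 45101 probe sets on the Affymetrix Mouse 430 2.0 array. Of these probe sets, 16 had a mean above 5 on the log2 scale in at least 1 stage, the study's limit for expression. Each gene was read from its lead probe set, the probe set with the highest mean over the 36 arrays, and all 10 lead probe sets passed that limit. The hearts came from untreated OF1 (Oncins France 1) mice, an outbred stock, with no allele or agent named for any group. There were 12 groups with 3 arrays each: 10 embryonic days (daily, E10.5 through E19.5), young adults of 10 weeks, and old adults, whose age is 14 months in the series description and 10 months in the study's methods. The arrays of E10.5 and E11.5 are all labelled as mixed male and female, and each later group holds 1 female array, 1 male array and 1 array of mixed male and female hearts. RNA was taken from homogenised whole hearts, so that fewer cells of a type and less RNA per cell cannot be told apart. The extraction text of the labels names liver, whereas the tissue label is heart. The liver markers Alb, Afp, Apoa1, Apoa2 and Fgb had no stage mean above 5, whereas the liver gene Ahsg rose from a mean of 2.89 at E10.5 to 5.03 in young adult hearts. The cardiomyocyte marker Tnnt2 had stage means of at least 12.4.

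The epicardium is the mesothelial sheet that covers the heart. Its cells come from the proepicardium, spread over the myocardium, and in part leave the sheet by an epithelial-mesenchymal transition to form fibroblasts and the mural cells of coronary vessels. Wt1, a zinc finger factor, Tcf21, a basic helix-loop-helix factor, and Tbx18, a T-box factor, are the transcription factors most used to mark it. Upk3b and Upk1b belong to the uroplakins, membrane proteins first known from the bladder lining, and Msln (mesothelin) is a surface protein of mesothelium. Krt8, Krt18 and Krt19 form the keratin filaments of simple epithelia, in which the type II keratin Krt8 pairs with the type I keratins Krt18 or Krt19. Podxl (podocalyxin) is a sialomucin of the CD34 family that is also carried by podocytes and by endothelium.

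On GRCm38.p6 the members lie apart on 9 chromosomes, with the exception of Krt8 (chr15:101996711-102004342) and Krt18 (chr15:102028216-102032026). These 2 keratin genes, whose products pair in filaments, are 23873 bases apart with 2 other annotated genes between them. The other members are Wt1 (chr2:105126529-105173614), Tcf21 (chr10:22817263-22820143), Tbx18 (chr9:87702800-87731260), Upk3b (chr5:136038496-136044993), Upk1b (chr16:38773182-38800203), Msln (chr17:25748613-25754378), Krt19 (chr11:100140810-100145926) and Podxl (chr6:31519493-31563937). RefSeq start regions, from 250 bases before to 50 bases after the annotated start, were given for 5 members. Those of Krt8, Krt18 and Upk3b are printed because these genes were the ones that fell between E12.5 and E13.5. They run 5′ to 3′ on the gene's strand, at chr15:102004293-102004592 (minus), chr15:102027966-102028265 (plus) and chr5:136038246-136038545 (plus). Capitals mark matches on either strand to 6 motifs: the TATA box TATAAA, the GC box GGGCGG, the Wt1 and Egr motif GCGGGGGCG, the T-box motif AGGTGTGA, the E-box CAGCTG and the TEAD motif GGAATG.
Krt8: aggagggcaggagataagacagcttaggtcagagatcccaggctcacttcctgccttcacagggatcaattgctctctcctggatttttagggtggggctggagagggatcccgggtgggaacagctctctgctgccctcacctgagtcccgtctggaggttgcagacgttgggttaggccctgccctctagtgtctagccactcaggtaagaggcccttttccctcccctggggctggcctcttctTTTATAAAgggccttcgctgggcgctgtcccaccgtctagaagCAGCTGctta
Krt18: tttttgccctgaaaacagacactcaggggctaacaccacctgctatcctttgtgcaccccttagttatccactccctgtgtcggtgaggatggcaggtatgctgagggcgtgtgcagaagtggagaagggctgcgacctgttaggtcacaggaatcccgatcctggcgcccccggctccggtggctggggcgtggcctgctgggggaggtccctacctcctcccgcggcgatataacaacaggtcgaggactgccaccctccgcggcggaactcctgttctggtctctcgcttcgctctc
Upk3b: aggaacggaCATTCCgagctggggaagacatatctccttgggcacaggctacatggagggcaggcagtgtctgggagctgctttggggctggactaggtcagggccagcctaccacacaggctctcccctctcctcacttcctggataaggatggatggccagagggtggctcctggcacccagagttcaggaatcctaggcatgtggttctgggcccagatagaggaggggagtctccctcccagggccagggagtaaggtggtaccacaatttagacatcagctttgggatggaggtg
The Krt8 window holds TATAAA on each strand in 1 overlapping stretch at the annotated start, and a CAGCTG after it. The Upk3b window holds GGAATG on the minus strand only, and the Krt18, Tcf21 and Tbx18 windows hold none of the 6 motifs. Of 32851 mouse start regions of this length, 13.6% hold TATAAA, 35.7% GGGCGG, 2.91% GCGGGGGCG, 1.28% AGGTGTGA, 16.3% CAGCTG and 14.7% GGAATG. A match is a string of letters and was not tested for binding.

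The 10 genes did not follow a single time course. The keratins and Upk3b were highest at E10.5 to E12.5 and low from E14.5 to E19.5, the 3 transcription factors had their lowest means in adult hearts, Msln rose early, Podxl dipped and then climbed, and the lead probe set of Upk1b had the narrowest range. Stage means of the lead probe sets ran from 4.22 to 7.94 for Krt8, from 4.44 to 6.72 for Krt18, from 4.69 to 6.61 for Krt19, from 4.14 to 6.65 for Upk3b, from 3.79 to 6.21 for Wt1, from 5.52 to 7.76 for Tcf21, from 3.46 to 7.54 for Tbx18, from 3.46 to 5.31 for Msln, from 5.69 to 9.37 for Podxl and from 6.03 to 6.55 for Upk1b. All levels and differences below are log2 signals after RMA (robust multi-array average), so that 1 unit is a doubling; levels of different probe sets cannot be compared with each other.

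**Figure D1:**
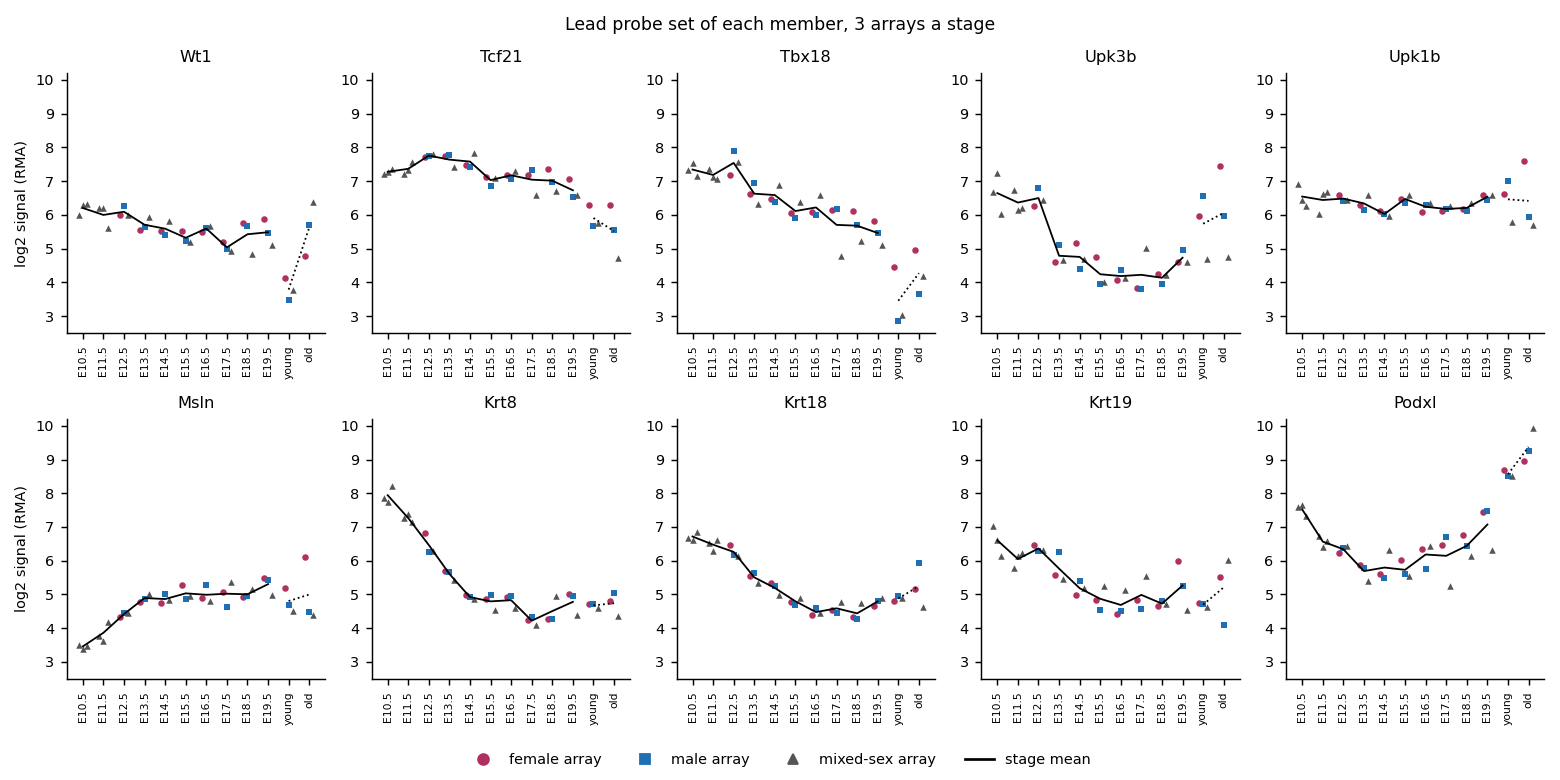
Log2 signal of the lead probe set of each member (y axis) on all 36 arrays by stage (x axis; young and old are adult hearts), with female, male and mixed-sex arrays as points and the stage mean as a line, dotted between the adult stages. Krt8 falls from 7.94 at E10.5 to 4.92 at E14.5, Upk3b drops between E12.5 and E13.5, and the single arrays spread widely for several members in adult hearts.

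E10.5 was compared with E13.5 to ask how these genes change from an epicardium that is still spreading to 1 that covers the heart. A member was called at an adjusted p under 0.05 in a limma model of all 36 arrays, with Benjamini-Hochberg adjustment over all probe sets. Of the 10 members, 4 fell and 1 rose, whereas 13.9% of all genes fell and 11.2% rose. The median difference was -0.78 over the members and 0.10 over all genes. By the study's own rule (adjusted p under 1e-05, a change beyond 4-fold and a mean above 5 in a stage), Krt8 was the only member called, against 0.116% of all genes lower and 0.266% higher.

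Krt8 had levels of 7.86, 7.75 and 8.22 at E10.5 and of 5.71, 5.68 and 5.44 at E13.5. The groups lay far apart, and Krt8 fell by 2.33 (SE 0.193, 5.04-fold, adjusted p = 2.8e-10). Its partner Krt18 went from 6.68, 6.61 and 6.86 to 5.54, 5.63 and 5.35. Krt18 thus fell by 1.21 (SE 0.194, adjusted p = 3.3e-05), a smaller drop than that of Krt8, also without overlap between the arrays. Krt19 went from 7.04, 6.62 and 6.15 to 5.58, 6.26 and 5.45, where the highest E13.5 array lay above the lowest E10.5 array, and its difference of -0.84 did not pass (SE 0.342, adjusted p = 0.0738). It passed without the third E10.5 array (adjusted p = 0.0351) or without the E13.5 male array (adjusted p = 0.0361).

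Among the surface proteins of mesothelium, Upk3b and Msln moved in opposite directions. Upk3b had levels of 6.67, 7.23 and 6.04 at E10.5 and of 4.59, 5.11 and 4.66 at E13.5, and it fell by 1.86 (SE 0.437, adjusted p = 0.00215). Msln had levels of 3.52, 3.39 and 3.48 at E10.5 and of 4.79, 4.88 and 5.01 at E13.5. Every E13.5 array was above every E10.5 array, and Msln rose by 1.43 (SE 0.269, adjusted p = 2.1e-04), with both stage means below the study's limit for expression. Podxl went from 7.59, 7.64 and 7.33 to 5.88, 5.79 and 5.41, a fall of 1.83 (SE 0.299, adjusted p = 4.3e-05). None of the 3 transcription factors passed: the differences were -0.50 for Wt1 (adjusted p = 0.182), -0.72 for Tbx18 (adjusted p = 0.144) and 0.36 for Tcf21 (adjusted p = 0.307). In a model of the 6 arrays of these stages alone, Wt1 (adjusted p = 0.040) and Tbx18 (adjusted p = 0.0227) passed as lower.

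**Figure D2:**
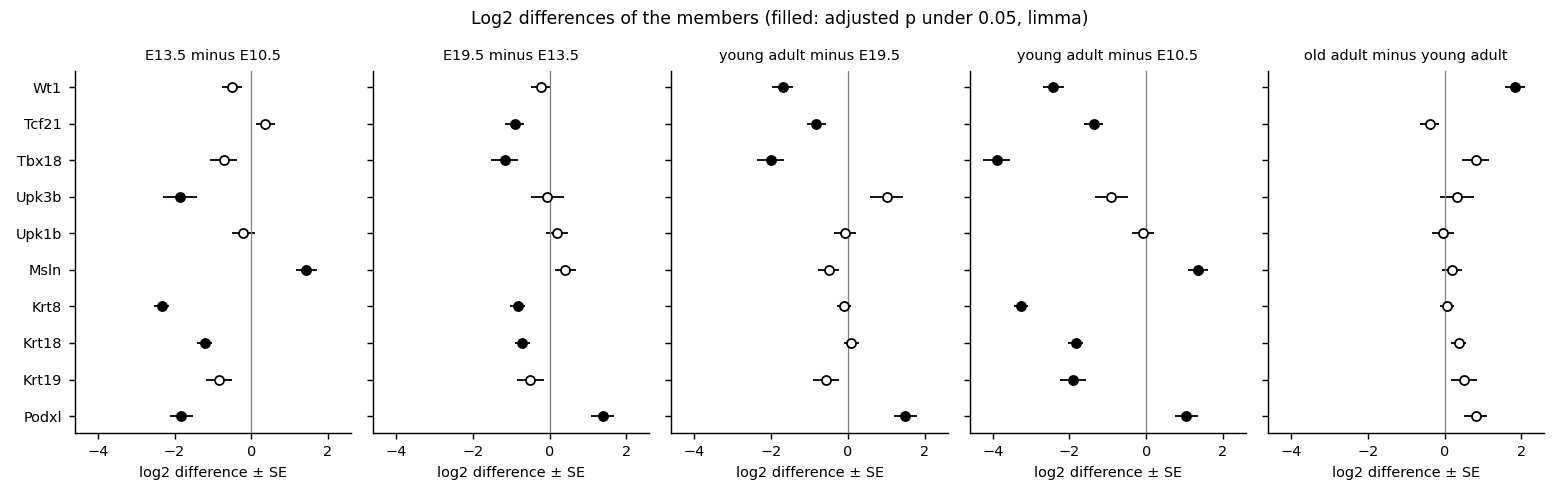
Log2 difference of each member (rows) in 5 stage comparisons (panels; x axis, log2 difference with its standard error from the limma model), filled where the adjusted p was under 0.05. Wt1, Tcf21 and Tbx18 are filled and negative from E19.5 to young adult, and Wt1 is the only filled point from young to old adult.

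Steps of 1 day place the early changes more closely. Of the 9 daily steps from E10.5 to E19.5, only E12.5 to E13.5 had a member called by limma: 3 members were lower and none was higher, against 1.26% of all genes called in either direction. Upk3b went from 6.26, 6.79 and 6.44 at E12.5 to 4.59, 5.11 and 4.66 at E13.5, and it fell by 1.71 within the day (SE 0.437, adjusted p = 0.0442). Its mean at E12.5 (6.50) was still near that of E10.5 (6.65). Krt8 fell by 0.86 (SE 0.193, adjusted p = 0.0247) and Krt18 by 0.75 (SE 0.194, adjusted p = 0.0451) in the same step. Krt8 stood at 7.28, 7.38 and 7.14 at E11.5 and at 6.83, 6.27 and 6.29 at E12.5, in each case below all its E10.5 arrays. In this order of days its levels lay between those of E10.5 and E13.5. The calls of this step lie close to the limit: without the E12.5 female array Upk3b alone was called (adjusted p = 0.0496), and without any of the other 5 arrays, or after quantile renormalisation, none was.

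For the other steps, with no member called, the share of all genes called was 2.67% from E10.5 to E11.5, 0.126% to E12.5, 0.0628% to E14.5, 0.0483% to E15.5, 0.00483% to E16.5, 0.0193% to E17.5, 0% to E18.5 and 1.72% to E19.5. At an unadjusted p under 0.05 there were 2 members lower from E10.5 to E11.5, 1 higher and 1 lower to E12.5, 1 lower to E14.5, 1 lower to E15.5, 2 lower to E17.5 and 1 higher to E19.5. The other Krt8 probe sets passed in further steps: 1 fell by 0.84 from E10.5 to E11.5 (SE 0.212, adjusted p = 0.0286), and another fell by 0.85 from E11.5 to E12.5 (SE 0.168, adjusted p = 0.0272) and by 0.89 from E13.5 to E14.5 (SE 0.168, adjusted p = 0.0212).

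From E13.5 to E19.5 the fetal heart matures under a closed epicardium. Of the members, 4 fell and 1 rose, against 11.7% and 7.45% of all genes, and none passed the study's rule, which 0.237% of all genes passed as lower and 0.386% as higher. The median difference was -0.36 over the members and 0.05 over all genes. Tcf21 went from 7.74, 7.77 and 7.42 to 7.05, 6.54 and 6.60, a fall of 0.91 (SE 0.245, adjusted p = 0.00884). Tbx18 went from 6.62, 6.96 and 6.32 to 5.82, 5.46 and 5.11, a fall of 1.17 (SE 0.352, adjusted p = 0.0199). Both factors thus left E13.5 with no overlap between the arrays, whereas Wt1 stayed within its spread (-0.22, SE 0.265, adjusted p = 0.633).

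Of the keratins, 2 of 3 were lower over the same span. Krt8 fell by 0.83 (SE 0.193, adjusted p = 0.00248) and Krt18 by 0.71 (SE 0.194, adjusted p = 0.00941), while Krt19 differed by -0.50 with overlapping arrays (adjusted p = 0.358). Upk3b had settled at its low level, with a difference of -0.06 (SE 0.437, adjusted p = 0.951). Podxl turned upward, from 5.88, 5.79 and 5.41 at E13.5 to 7.43, 7.47 and 6.31 at E19.5, and it rose by 1.38 (SE 0.299, adjusted p = 0.00122). The call of Tbx18 was lost without the E13.5 female (adjusted p = 0.0517), the E13.5 male (0.11), the E19.5 male (0.0558) or the E19.5 mixed array (0.102). Without the E13.5 male array Krt18 was lost too (adjusted p = 0.0528), and without the E19.5 male array Tcf21 (adjusted p = 0.0527), so that 2 members were called lower. Krt18 was also lost under median centring (-0.56, adjusted p = 0.0663), and Tcf21 with the mean of its probe sets (-0.49, adjusted p = 0.0865).

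Young adult hearts were set against E19.5 to follow the genes across birth. Of the members, 3 fell and 1 rose, against 17.0% and 14.7% of all genes, and none passed the study's rule, which 1.02% of genes passed as lower and 0.787% as higher. All 3 that fell were the transcription factors. Wt1 went from 5.89, 5.47 and 5.10 at E19.5 (female, male and mixed arrays) to 4.12, 3.47 and 3.77, a fall of 1.70 (SE 0.265, 3.25-fold, adjusted p = 7.1e-06). Tbx18 went from 5.82, 5.46 and 5.11 to 4.47, 2.86 and 3.04, a fall of 2.01 (SE 0.352, 4.02-fold, adjusted p = 4.1e-05). Tcf21 went from 7.05, 6.54 and 6.60 to 6.30, 5.67 and 5.75, a fall of 0.82 (SE 0.245, adjusted p = 0.0108). In each of the 3 factors the young adult arrays lay below all E19.5 arrays. The call of Tcf21 was lost without the E19.5 female array (adjusted p = 0.0778), without the young adult male array (adjusted p = 0.0588) or with the hybridization controls as a covariate (adjusted p = 0.363).

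Podxl, the member that rose, went from 7.43, 7.47 and 6.31 to 8.68, 8.50 and 8.51, by 1.49 (SE 0.299, adjusted p = 2.4e-04). Upk3b stood at 4.62, 4.96 and 4.62 at E19.5 and at 5.96, 6.55 and 4.71 in young adult hearts. Its female and male arrays were higher and its mixed array was not, and the difference of 1.01 did not pass (SE 0.437, adjusted p = 0.0837). It passed under quantile renormalisation (adjusted p = 0.0422), under median centring (adjusted p = 0.0305) and without the young adult mixed array (adjusted p = 0.0119). Msln differed by -0.50, Krt19 by -0.57, Krt8 by -0.10, Krt18 by 0.09 and Upk1b by -0.07, none of which passed. The median difference was -0.30 over the members and 0.05 over all genes.

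Over the whole span from E10.5 to young adult, 6 members were lower and 2 higher, against 28.5% and 38.6% of all genes. Wt1, Tbx18 and Krt8 passed the study's rule as lower and none as higher, against 5.14% and 2.64% of all genes. Tbx18 was 14.8-fold lower (log2 difference -3.89, SE 0.352, adjusted p = 6.6e-11), Krt8 was 9.61-fold lower (-3.27, SE 0.193, adjusted p = 3.4e-15) and Wt1 was 5.35-fold lower (-2.42, SE 0.265, adjusted p = 3.7e-09). Krt18 (-1.84, SE 0.194, adjusted p = 1.8e-09), Krt19 (-1.91, SE 0.342, adjusted p = 2.0e-05) and Tcf21 (-1.37, SE 0.245, adjusted p = 2.0e-05) were also lower. Msln was higher by 1.35 (SE 0.269, adjusted p = 8.4e-05) and Podxl by 1.04 (SE 0.299, adjusted p = 0.00356). Upk3b, lower by 0.91 with overlapping arrays, did not pass (adjusted p = 0.070). It passed without the third E10.5 array (adjusted p = 0.0307), without the young adult male array (adjusted p = 0.0184) and with the array's sex label as a replicate block (-1.11, adjusted p = 0.0333). The spiked hybridization controls, which carry no heart RNA, stood at 9.68 to 10.3 at E10.5 and at 12.0 to 12.4 in young hearts. With their level as a covariate Tcf21 (-0.31, adjusted p = 0.678), Msln (1.03, adjusted p = 0.165) and Krt19 (-1.59, adjusted p = 0.0835) no longer passed. The median was -1.60 over the members and 0.21 over all genes.

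Old and young adult hearts differed in a single member. Wt1 was higher in old hearts, where it stood at 4.80 on the female, 5.69 on the male and 6.39 on the mixed array, against 4.12, 3.47 and 3.77 in young hearts. All old arrays lay above all young arrays, and Wt1 rose by 1.84 (SE 0.265, 3.58-fold, adjusted p = 8.2e-05), back to about its level of E14.5 to E19.5. Thus 1 member was higher and none lower, against 4.46% and 3.13% of all genes. At an unadjusted p under 0.05 limma had 3 members higher and none lower. Under the study's rule no member was called, against 0.00483% of genes in each direction. In a model of the 6 adult arrays alone the same difference in Wt1 had an adjusted p of 0.105. Single arrays brought further members past the limit: Tbx18 was higher without the young female array (adjusted p = 0.0139), Krt19 without the old male array (0.0464) and Krt18 without the old mixed array (0.0254), and Tcf21 was lower without the old female array (0.0365). The median difference was 0.34 over the members and 0.00 over all genes.

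On the old arrays Wt1 stood in the same order as Podxl, which was 8.94 on the female, 9.25 on the male and 9.93 on the mixed array, and as the mean of 8 endothelial markers, which was 7.67, 7.86 and 8.34. In young hearts that endothelial mean was between 7.29 and 7.44, and Pecam1 was 1.19 higher in old than in young hearts (SE 0.299, adjusted p = 0.014). Of the 8 markers 2 were higher and none lower, against 4.46% and 3.13% of all genes. The call of Pecam1 was lost without the young mixed (adjusted p = 0.0743) or the old mixed array (0.105). That of Kdr, the other marker called, was also lost without the old mixed array, where its difference went from 0.81 to 0.49 (adjusted p = 0.0774). The part of endothelial RNA in the Wt1 difference was not tested. The mean of 8 fibroblast markers was lowest on the old mixed array, at 8.43, against 9.42 on the female and 9.37 on the male array. Podxl itself differed by 0.81 between old and young hearts without overlap, and did not pass (SE 0.299, adjusted p = 0.0949).

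Several members spread widely between adult arrays of the same age. Upk3b stood at 7.46 on the old female, 5.96 on the old male and 4.77 on the old mixed array. Upk1b stood at 7.60, 5.94 and 5.71 on the same arrays, and Msln at 6.11, 4.49 and 4.39. The old female array was thus the highest of its age in all 3 mesothelial surface genes, and the mixed array the lowest. The SD over 3 arrays was 1.35 for Upk3b, 1.03 for Upk1b and 0.97 for Msln in old hearts, against 0.20, 0.09 and 0.28 at E19.5. Without the old female array the difference between old and young hearts turned from 0.32 to -0.38 for Upk3b and from 0.19 to -0.37 for Msln. Tcf21 had the same order (6.28, 5.56 and 4.71), and Tbx18 was also highest on the female array (4.96, 3.67 and 4.18). Krt8 and Krt18 were highest on the old male array (5.06 and 5.95), and Krt19 was highest on the old mixed array (6.03).

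**Figure D3:**
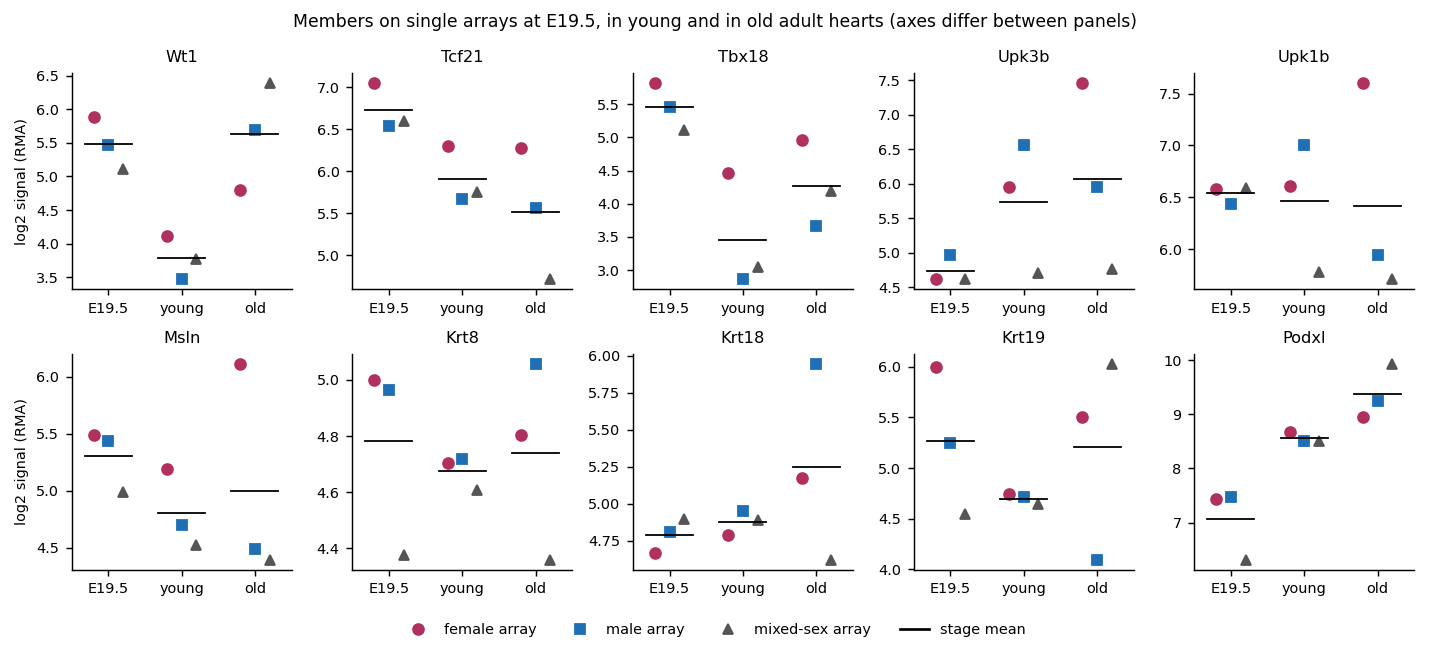
Log2 signal of each member (y axis, with its own range in each panel) on the female, male and mixed arrays at E19.5 and in young and old adult hearts (x axis), with the stage mean as a bar. The old female array lies highest for Upk3b, Upk1b and Msln, and all old arrays lie above all young arrays for Wt1 and Podxl.

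A list of 19 other genes of epicardium and mesothelium was read in the same way. On the old female array 12 of the 19 were at their highest among the old arrays, against 3 on the male and 4 on the mixed array. Dmkn, among the 12, was low on all of them (2.895, 2.705 and 2.508 on the female, male and mixed arrays). Of the 10 members, 5 were highest on the old female, 2 on the male and 3 on the mixed array. The share of all genes highest on each array was not counted. The mean over the 19 genes was 5.60 on the old female array, against 4.74 on the male and 4.57 on the mixed array. Gpm6a, a membrane glycoprotein, was 8.50, 6.29 and 4.26 on the female, male and mixed arrays. Lrrn4 was 5.64, 3.59 and 2.91, and Bnc1 (basonuclin), a zinc finger factor of mesothelium, was 4.64, 2.44 and 2.83. Both Lrrn4 and Gpm6a therefore had the order seen for Upk3b. Aldh1a2 was 5.76, 4.27 and 3.98, and Sema3d was 6.18, 5.02 and 4.32, in that order too. In young hearts the mean over the list was 4.81, 4.77 and 4.31, again lowest on the mixed array. How much epicardium each sample held is not given in the sources used here. On the same old female, male and mixed arrays the mean of 7 cardiomyocyte markers was 11.71, 11.8 and 11.1. The mean of 8 fibroblast markers was 9.42, 9.37 and 8.43, and Pdgfra alone was 8.998, 8.535 and 7.705, both in the order of Upk3b. That of 8 endothelial markers ran the other way, at 7.67, 7.86 and 8.34, and that of 6 mural markers was 8.08, 8.6 and 8.58.

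**Figure D4:**
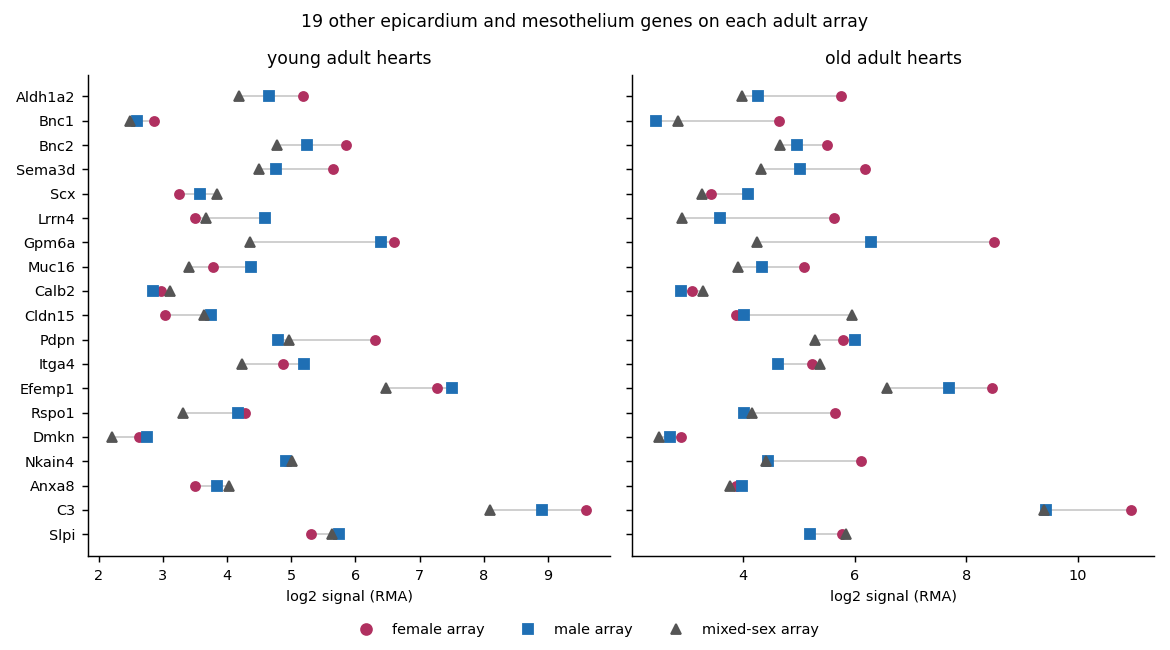
Log2 signal (x axis) of 19 other epicardium and mesothelium genes (rows) on the female, male and mixed arrays of young hearts (left) and old hearts (right), with grey lines from the lowest to the highest array. In old hearts 12 of the 19 are highest on the female array, among them Gpm6a at 8.50 against 4.26 on the mixed array. The share of all genes highest on that array was not counted.

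Over development the list had members called in both directions. Of all genes, 11.2% rose and 13.9% fell from E10.5 to E13.5, and 7.45% rose and 11.7% fell from E13.5 to E19.5. The shares were 14.7% and 17.0% from E19.5 to young adult, and 38.6% and 28.5% from E10.5 to young adult. They were 4.46% and 3.13% from young to old adult. From E10.5 to E13.5, 4 of 19 fell (Bnc1 with a log2 difference of -1.66, Lrrn4 of -1.91, Itga4 of -1.15 and Efemp1 of -1.31) and Rspo1 rose by 1.04, with a median of 0.21 against 0.10 over all genes. From E13.5 to E19.5, 5 fell and 1 rose (median -0.18 against 0.05). Rspo1, a secreted Wnt agonist, fell by 1.97 (SE 0.324, adjusted p = 4.3e-05) and C3 rose by 2.13 (SE 0.292, adjusted p = 2.8e-06). Bnc1 fell further, by 1.84 (SE 0.326, adjusted p = 1.1e-04), as did Sema3d, a guidance protein, by 1.16 (SE 0.338, adjusted p = 0.0159). From E19.5 to young adult, 5 rose and 1 fell (median 0.06 against 0.05). The complement gene C3 rose most again, by 3.55 (SE 0.292, adjusted p = 4.1e-11), and the gene that fell was Aldh1a2, the retinoic acid synthesising enzyme, by 1.07 (SE 0.311, adjusted p = 0.00884). From E10.5 to young adult 6 rose and 6 fell (median 0.35 against 0.21), from a difference of 5.79 for C3 to -3.59 for Bnc1. From young to old adult 2 rose, Cldn15 by 1.14 and C3 by 1.05, and none fell (median 0.20 against 0.00). Both rest on single arrays: Cldn15, which never had a stage mean above 5, stood at 3.87, 4.03 and 5.95 on the old female, male and mixed arrays, and its difference was 0.47 without the mixed array (adjusted p = 0.109). It was 0.92 without the young female array (adjusted p = 0.0578). C3 stood at 10.9, 9.42 and 9.39, and its difference was 0.54 without the old female (adjusted p = 0.205), 0.67 without the young mixed (0.195) and 1.07 without the young male array (0.0593). Among the earlier calls, Rspo1 (E10.5 to E13.5) was lost without the first E10.5 array (adjusted p = 0.121) or the E13.5 mixed array (0.129). That of Sema3d was lost without the E13.5 female (adjusted p = 0.0514) or the E19.5 mixed array (-0.77, 0.167), and that of Aldh1a2 without the young mixed array (0.0741). Of the 19 genes, 7, among them Muc16 and Calb2, had no stage mean above 5.

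Relatives of the members were mostly low. Of 10 such genes, 6 had no stage mean above 5: the uroplakins Upk1a and Upk3a, the keratins Krt20 and Krt23, and Tbx15 and Msc. From E10.5 to E13.5, 1 rose and 1 fell (11.2% and 13.9% of all genes), and from E13.5 to E19.5 2 rose and 1 fell (7.45% and 11.7%). From E19.5 to young adult 2 rose and 2 fell (14.7% and 17.0%), and from E10.5 to young adult 4 rose and 2 fell (38.6% and 28.5%). None was called from young to old adult (4.46% and 3.13%). Krt7, a further keratin partner, fell by 2.03 from E10.5 to young adult (SE 0.217, adjusted p = 2.3e-09), and Krt20 fell by 1.46 from E10.5 to E13.5 (SE 0.209, adjusted p = 7.7e-06), at a level that never exceeded 5. Cd34, the relative of Podxl, was 1.86 higher in young adult hearts than at E10.5 (SE 0.402, adjusted p = 2.1e-04), where Podxl was higher too.

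Genes of the epithelial-mesenchymal transition, the step by which epicardial cells leave the sheet, were read from a list of 10. Of all genes, 11.2% rose and 13.9% fell from E10.5 to E13.5, and 7.45% rose and 11.7% fell from E13.5 to E19.5. The shares were 14.7% and 17.0% from E19.5 to young adult, and 38.6% and 28.5% from E10.5 to young adult. They were 4.46% and 3.13% from young to old adult. From E10.5 to E13.5, Snai2 rose by 0.88 (SE 0.156, adjusted p = 1.2e-04), Zeb2 rose by 0.87 (SE 0.200, adjusted p = 0.00178) and Fn1 fell by 1.01 (SE 0.306, adjusted p = 0.0153), with 7 not called. The call of Fn1 was lost without the first (adjusted p = 0.0554) or second E10.5 array (0.0898) or the E13.5 mixed array (0.135). From E13.5 to E19.5, 2 fell and none rose, led by Twist1, which fell by 2.74 (SE 0.225, adjusted p = 1.6e-10). From E19.5 to young adult 1 rose and 3 fell, from E10.5 to young adult 2 rose and 4 fell, and from young to old adult Cdh1 fell by 0.58, at a level that never exceeded 5. The cadherin Cdh2, which cardiomyocytes also carry, fell by 2.27 from E19.5 to young adult (SE 0.244, adjusted p = 1.1e-08).

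Markers of the cell types that epicardial cells can form moved beside the members. All 8 fibroblast markers rose from E10.5 to E13.5, against 11.2% of all genes (median 1.81 against 0.10), while Krt8, Krt18, Upk3b and Podxl fell. Col1a1, a chain of type I collagen, rose most, by 3.11 (SE 0.206, adjusted p = 2.1e-12), and without the first E10.5, second E10.5, E13.5 female or E13.5 male array Pdgfra was not called (adjusted p = 0.0541, 0.0712, 0.0645 and 0.0631). Pdgfra, a growth factor receptor of fibroblasts, had a mean of 9.75 at E13.5, 8.08 at E19.5 and 8.41 in old hearts. Of 6 mural markers, 4 rose and 1 fell over the same days, against 11.2% and 13.9% of all genes. The calls of Abcc9, which fell, and of Notch3 and Kcnj8 were each lost without any 1 of several arrays. Without the E13.5 mixed array the adjusted p was 0.163 for Abcc9 and 0.168 for Kcnj8. It was 0.237 for Notch3 without the second E10.5 array. Of 8 endothelial markers, 1 rose and 1 fell from E10.5 to E13.5, against 11.2% and 13.9% of all genes. The marker that fell was Emcn, with a difference of -1.14, and its call was lost without the second E10.5 array (adjusted p = 0.0804). More of them rose later, with 4 of 8 higher from E13.5 to E19.5 and 4 of 8 from E19.5 to young adult. Of all genes, 7.45% and 14.7% were higher in these spans, in which Podxl rose too. The call of Erg from E13.5 to E19.5 was lost without any 1 of several arrays, such as the E13.5 female array (adjusted p = 0.134). Pecam1, an adhesion protein of endothelium, was 1.50 higher in young adult hearts than at E19.5 (SE 0.299, adjusted p = 2.2e-04). Their part in the course of each member was not tested. Of 7 markers of other epithelia, 5 (Cdh1, Cldn4, Cldn6, Cldn7 and Foxa2) had no stage mean above 5. The other 2, Epcam and Cldn3, passed it, both of them in each stage from E12.5 to E18.5 and in old hearts. Of these 7 markers 4 rose and none fell from E10.5 to young adult, against 38.6% and 28.5% of all genes. Of 5 lung markers measured, Sftpb alone passed that limit, and Sftpc, which defines alveolar cells, had stage means of at most 4.49.

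Of the 6 members with several probe sets, Krt8 and Upk3b fell on each from E10.5 to E13.5, whereas the probe sets of Tcf21, Tbx18, Upk1b and Podxl differed in their calls. From E10.5 to E13.5 the 3 Krt8 probe sets had log2 differences of -2.33, -2.53 and -2.07, and the Upk3b probe sets had -1.86 and -1.53. For Tcf21 the lead probe set did not pass from E10.5 to E13.5, whereas the other, at a lower signal, rose by 1.29 (SE 0.260, adjusted p = 4.5e-04). From E13.5 to E19.5 the second Tcf21 probe set differed by -0.06 (adjusted p = 0.907), where the lead fell. For Upk1b the lead probe set, which is of the kind that may bind related transcripts, differed by -0.20 (adjusted p = 0.652). Its 3 other probe sets fell, with differences of -0.80, -1.01 and -0.45 (adjusted p = 0.037, 0.00943 and 0.0423) at low signal, so that the course of Upk1b depends on the probe set. The probe set with -0.80 is of the same kind as the lead, as are the Krt8 probe sets with -2.53 and -2.07. The second Tbx18 probe set fell by 1.16 in the same comparison (SE 0.270, adjusted p = 0.0019), where the lead did not pass, and it differed by -0.42 from E19.5 to young adult (adjusted p = 0.264), where the lead fell by 2.01. The second Podxl probe set, at low signal, differed by -0.18 from E10.5 to E13.5 (adjusted p = 0.634), by 0.40 from E13.5 to E19.5 (adjusted p = 0.294) and by -0.17 from young to old adult (adjusted p = 0.73). It rose by 0.98 from E19.5 to young adult (SE 0.244, adjusted p = 0.00244), as the lead did, so that the early fall of Podxl rests on the lead. With the mean of all probe sets of a gene in place of the lead, Tcf21 was higher (0.83, adjusted p = 0.00199) and Tbx18 (-0.94, adjusted p = 0.0133) and Upk1b (-0.62, adjusted p = 0.0389) were lower at E13.5 than at E10.5.

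**Figure D5:**
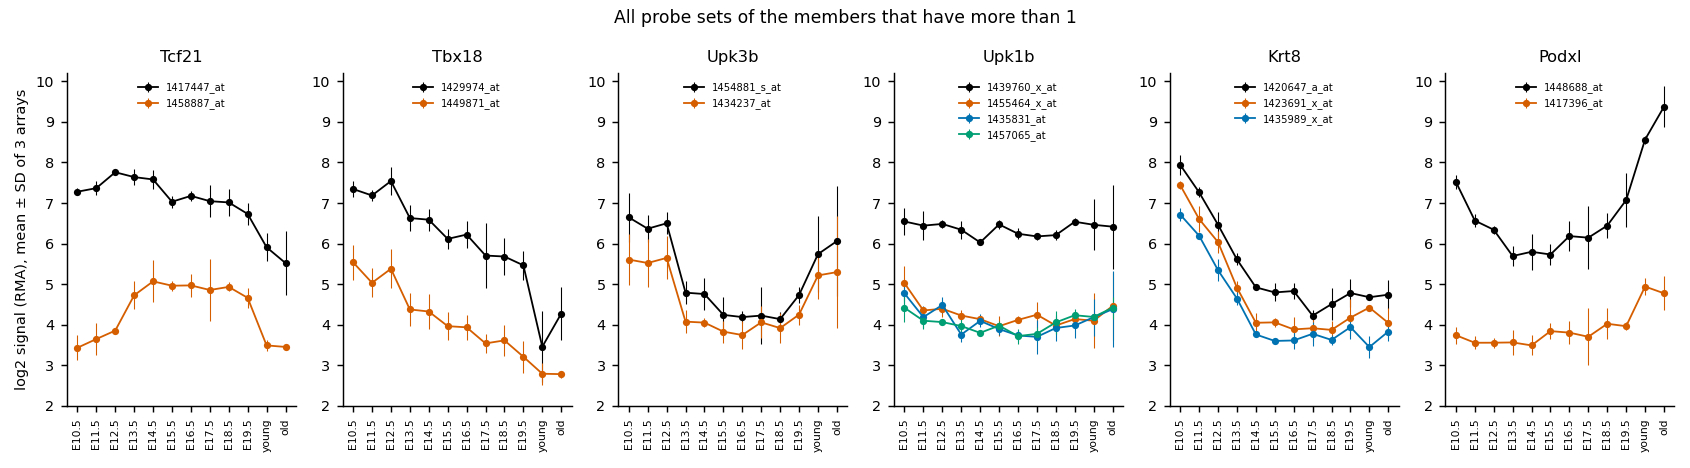
Mean log2 signal with SD over 3 arrays (y axis) by stage (x axis) for every probe set of the 6 members with more than 1, the lead in black. The Krt8 and Upk3b probe sets run in parallel, whereas the second Tcf21 probe set rises from 3.43 at E10.5 to 4.72 at E13.5 and the lead of Upk1b stays between 6.03 and 6.55.

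Each later stage except E12.5 gave a pair of arrays, 1 of each sex, and the model of these pairs took the stage into account. With 9 pairs no member was called by limma, against 0.0435% of all genes. At an unadjusted p under 0.05 there were 2 members in that model, Tcf21 with a male minus female difference of -0.28 (SE 0.0961, adjusted p = 0.552) and Tbx18 with -0.41 (SE 0.161, adjusted p = 0.593). Both were higher on the female array in 7 of 9 pairs. The male minus female difference of Tbx18 was -1.60 in the young and -1.29 in the old adult pair. Tested against the 7 embryonic pairs, it differed by -1.34 (interaction term in limma, adjusted p = 0.00619), the only member that passed. The spread in this test comes mostly from the embryonic pairs, so that the adult pairs are assumed to vary like them. On the second Tbx18 probe set the differences were -0.50 and -0.06, and the term was -0.37 (adjusted p = 0.508). On the lead probe set the adult values of both sexes stood below 5. The female and male arrays were at 4.47 and 2.86 in young and at 4.96 and 3.67 in old hearts. Each adult pair is 1 female and 1 male array, so that sex and single animals cannot be told apart.

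The members other than Podxl were then compared array by array within the embryonic stages. Deviations from the stage mean were correlated over the 30 embryonic arrays for 8 pairs of members. The highest value was that of Wt1 and Tbx18 (Pearson's r = 0.50, permutation p = 0.0114, adjusted over the 8 pairs 0.0913; Spearman's rho = 0.49, permutation p = 0.0158, adjusted 0.126). Without the 2 arrays farthest from the median of Wt1 it was 0.40 (permutation p = 0.0405). Krt8 and Krt18, which fell together over the stages, had r = 0.33 within them (permutation p = 0.19, adjusted 0.396; rho = 0.23, permutation p = 0.305, adjusted 0.581). Wt1 and Tcf21 had r = 0.40 (permutation p = 0.132, adjusted 0.396; rho = 0.34, permutation p = 0.157, adjusted 0.507), and Upk3b and Msln had r = 0.35 (permutation p = 0.198, adjusted 0.396; rho = 0.30, permutation p = 0.19, adjusted 0.507). The other 4 pairs had r between -0.06 and 0.26. No pair passed after adjustment.

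The genes whose course over the 36 arrays was most like each member were found by Pearson's r among 11317 genes with a mean above 5 in a stage; these r share the stage course and are given without a test. For Upk3b the first was Lrrn4, another mesothelial gene of the list above (r = 0.92), followed by Asnsd1 (0.89), Stard3nl, Polr2e and Usp34 (0.87 each). For Upk1b they were Gpm6a (0.61), Akr1b8 and Mybphl (0.57 each), Lrrn4 (0.52) and Palm (0.51). Krt8 and Krt18 each had the other among their first 5 (r = 0.93). Krt8 shared its course further with Bex2 (0.96), Fndc3c1 (0.95) and the embryonic globins Hbb-bh1 (0.95) and Hba-x (0.93), and Krt18 with Hbb-bh1 and Amot (0.93 each), Stk26 (0.92) and Hba-x (0.91). For Krt19 they were Trim33 (0.86), Fn1 (0.84), and Eif4ebp2, Tmem2 and Phf5a (0.83 each).

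Among the transcription factors, Tcf21 was closest to Cdon (0.96), Gpx8 (0.95), and Tbx20, Irs1 and Epha7 (0.94 each). Tbx18 was closest to Zfp383, Copa, Cnot6, Arf1 and Ptbp2 (0.97 each), and Wt1 to Plat (0.88), Midn (0.87), 5830407P18Rik (0.86), Cpd and Eif5 (0.85 each). Msln was closest to Tmem158, Gas6 and Col14a1 (0.86 each), D130051D11Rik and Gm20186 (0.85 each). Podxl was closest to Dbndd2 and Pdgfd (0.96 each), and to Thbd, Emcn and Cd151 (0.95 each), of which Thbd (thrombomodulin) and Emcn (endomucin) are surface proteins of endothelium.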

How the data were processed

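RNA of 36 whole mouse hearts or heart pools was hybridised by the authors to Affymetrix Mouse 430 2.0 arrays, and the deposited values are log2 signals after RMA, with no depth to report. The deposited symbols had lost some letters, which were restored through the gene ID for 523 probe sets; 6937 probe sets have no single gene ID. No pair of arrays was identical, and the lowest r between 2 arrays of a stage was 0.969.

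Stages were compared with limma 3.58.1 in R 4.3.3 on stage means of all 36 arrays, with no filter, and p-values were adjusted by Benjamini-Hochberg over 45101 probe sets. The script was tested on simulated data. Whether the arrays of a stage are separate animals or pools is stated for the sexes only, so that p-values rest on the spread between these arrays. For each probe set the stage model shares its spread over all 36 arrays, most of them embryonic. A wider spread between adult arrays is therefore not fully carried by the adult p-values. Male and female arrays were compared from E13.5 on, with stage as a block. Relations used 100000 permutations within stages (Python 3.11.15, scipy 1.17.1). Two-sided tests were used throughout. Of the other lists, the genes with the largest called differences are named, with Aldh1a2, Bnc1, Lrrn4, Gpm6a, Sema3d, Cd34, Pdgfra, Pecam1, Tnnt2, Alb and Sftpc and some others chosen after their values were seen. The members and all lists were chosen with earlier results of these data known. Alternatives were another scaling, a filter, the mean of probe sets, 6 arrays only, a replicate block, the hybridization controls and each array left out (for the genes of the lists, chosen after seeing the data). Sequences and positions are from RefSeq on GRCm38.p6, which placed all 10 members.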

Additional observations from a re-analysis of the deposited data

Results flagged for a closer look

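On the lead probe set of Tbx18 the male minus female difference depended on maturity: over the 2 adult pairs it differed by -1.34 from that over the 7 embryonic pairs (limma interaction term, adjusted p = 0.00619). It was -1.60 in the young and -1.29 in the old adult pair, so that the female array was the higher in both. These adult values of the lead probe set all stood below the limit of 5. The female and male arrays were at 4.47 and 2.86 in young and at 4.96 and 3.67 in old hearts. The spread in this test comes mostly from the 7 embryonic pairs, so that the 2 adult pairs are assumed to vary like them. With each of the 9 pairs left out the term lay between -1.50 and -1.18. Its adjusted p stayed under 0.05 without any 1 of the embryonic pairs. Without the young or the old pair a lone adult pair is left, with no spread of its own. The term was -1.52 after quantile renormalisation and -1.43 after median centring. On the second Tbx18 probe set, at low signal, the adult differences were -0.50 and -0.06 and the term was -0.37 (adjusted p = 0.508). These alternatives were chosen after seeing the data. Each adult pair is 1 female and 1 male array, and sex and single animals cannot be told apart.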

How the results depend on the processing

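The 27 called differences of single members were recomputed under 340 alternatives, of which 0 turned the direction and 37 lost the call. Among differences that were not called, 30 of 481 alternatives turned the direction and 18 gained a call. With 3 arrays a stage, low signals near the limit of 5 for several members limit the precision. Under the study's rule the members called higher and lower were 0 and 1 from E10.5 to E13.5, 0 and 0 from E13.5 to E19.5, 0 and 0 from E19.5 to young adult, 0 and 3 from E10.5 to young adult, and 0 higher from young to old adult. Members called higher were 2 with the mean of all probe sets from E10.5 to E13.5, 2 after quantile renormalisation and 2 after median centring from E19.5 to young adult, 1 with the hybridization controls as a covariate from E10.5 to young adult, and 0 with the 6 adult arrays alone from young to old adult. The step from E12.5 to E13.5 had 0 members called after quantile renormalisation, an alternative chosen after seeing the data. The causes were not tested.

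Median centring moved every difference by 0.185, 0.158, 0.184, 0.527 and -0.144 in the 5 comparisons in the order above. It turned Upk3b to 0.10 (E13.5 to E19.5), Upk1b to 0.11 and Krt8 to 0.08 (E19.5 to young adult), Upk1b to 0.45 (E10.5 to young adult) and Krt8 to -0.08 (young to old adult). Quantile renormalisation turned Upk1b to 0.045 (E19.5 to young adult) and 0.40 (E10.5 to young adult). The mean of all probe sets turned Upk3b to 0.058 (E13.5 to E19.5) and Upk1b to 0.011 (E19.5 to young adult) and 0.19 (young to old adult). The hybridization covariate turned Tbx18 to 0.13 (E10.5 to E13.5), Krt18 to -0.049 (E19.5 to young adult) and Upk1b to 0.065 (young to old adult). Krt19 turned to 0.001 between sexes in embryonic pairs. The relation of Upk3b and Upk1b turned to 0.08 under centring, and that of Krt8 and Krt19 to 0.07 with the hybridization level removed.

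With each array left out, the members called ran from 1 to 1 higher and 4 to 5 lower (E10.5 to E13.5), 1 to 1 and 2 to 4 (E13.5 to E19.5), 1 to 2 and 2 to 3 (E19.5 to young adult), 2 to 2 and 6 to 7 (E10.5 to young adult), and 1 to 2 and 0 to 1 (young to old adult). They ran from 0 to 1 in the step to E13.5 and from 0 to 0 between sexes. Directions turned for Upk3b between -0.17 and 0.10 (E13.5 to E19.5), for Upk1b between -0.35 and 0.27 and Krt8 between -0.305 and 0.005 (E19.5 to young adult), for Upk1b between -0.35 and 0.26 (E10.5 to young adult), and for Tcf21 between -0.772 and 0.014, Upk3b between -0.38 and 0.97, Upk1b between -0.64 and 0.31, Msln between -0.36 and 0.50 and Krt8 between -0.10 and 0.25 (young to old adult), and for Upk1b between -0.25 and 0.01 between sexes.

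With the sex label as a replicate block, 2 calls changed: Krt18 was lost in the step from E12.5 to E13.5 (adjusted p = 0.0512) and Upk3b was gained from E10.5 to young adult (-1.11, adjusted p = 0.0333). It moved 0 counts of members called by more than 1.5 times. Arrays with the same label correlated between -0.60 and 0.61 in their deviations, so that the label does not pair them.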
